A study of Homo sapiens with 8 samples.

Results

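Nuclear factor kappa B (NF-kB) genes and the inflammatory cytokine and chemokine genes around them were followed in 2 human prostate cancer cell lines exposed to hydrogen peroxide. The set was a fixed list of 35 genes, taken by name with no threshold on their values. It was chosen with earlier results of these data known. All 35 genes were present among the 58828 genes of both count tables. The set held the 5 NF-kB subunits, 4 inhibitors and feedback genes (NFKBIA, NFKBIE, NFKBIZ, TNFAIP3), 3 signalling and survival genes (BIRC2, BIRC3, TRAF1), 9 chemokines, 11 cytokines or cytokine antagonists and 3 further targets (TNFAIP2, ICAM1, PTGS2). RNA-seq was available for 8 conditions with 1 library each. 22RV1 cells, from a prostate carcinoma xenograft, and DU145 cells, from a brain metastasis of a prostate carcinoma, carried either an empty lentiviral vector or a doxycycline-inducible, HA-tagged PAGE4 gene, were selected with puromycin, and all received doxycycline. PAGE4 (prostate associated gene 4) is a cancer/testis antigen, and the study asked how its overexpression acts in prostate cancer cells under oxidative stress. Each of the 4 kinds of cell was given PBS or H2O2 for 12 h before collection. The labels state the H2O2 dose as 200 mM. Each kind of cell was a selected population under a single promoter system, so a difference between vector and PAGE4 cells can also hold differences between those populations.

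NF-kB is a family of dimeric transcription factors built from RELA, RELB, REL and the products of NFKB1 and NFKB2. In resting cells the dimers are held in the cytoplasm by IkB proteins such as the products of NFKBIA and NFKBIE. Stimuli such as TNF or IL-1 activate IkB kinases, IkB is degraded, and the freed dimers bind kB sites in promoters and enhancers, among them those of their own inhibitors, which close a negative feedback loop. Reactive oxygen species can alter this pathway, and in prostate cancer constitutive NF-kB activity and CXCL8 and IL6 secretion are well known from some cell lines.

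Many of the promoters of these genes hold sequences that match the kB motif, the DNA sequence that NF-kB binds. RefSeq promoter windows of 300 bases (250 before and 50 after a transcription start, GRCh38.p14) were matched to 28 of the 35 genes by symbol, with 40 windows in all. CCL2, CX3CL1, CXCL16, IL18, LIF, NFKBIE and RELB were not matched. Both strands were searched for the 10-base kB consensus and for the 9-base form GGNNNTTCC, and the 2 motifs overlap each other in part. The kB consensus occurred in 40.0% of the 40 windows and in 11.3% of all 35116 promoter windows. GGNNNTTCC occurred in 60% of them and in 20.1% of all windows. Counted by gene, 20 of 28 genes (71.4%) held at least 1 match to either motif, against 29.3% of 27305 genes. The stretches of 60 bases below are shown because they belong to genes on which the results turn, namely inhibitors that close the feedback loop, a subunit, an adhesion molecule, the CXCL8 and CXCL1 to CXCL3 cluster and IL32. They read 5′ to 3′ on the strand of the gene, and capitals mark every base inside a match to either motif.
NFKBIA, chr14:35404797-35404856, minus strand: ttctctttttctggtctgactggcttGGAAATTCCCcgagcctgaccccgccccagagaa
TNFAIP3, chr6:137867178-137867237, plus strand: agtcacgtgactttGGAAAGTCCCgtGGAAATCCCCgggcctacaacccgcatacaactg
NFKB1, chr4:102501285-102501344, plus strand: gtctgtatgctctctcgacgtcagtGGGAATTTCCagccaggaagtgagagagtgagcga
ICAM1, chr19:10270908-10270967, plus strand: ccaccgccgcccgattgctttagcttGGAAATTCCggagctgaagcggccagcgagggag
CXCL8, chr4:73740452-73740511, plus strand: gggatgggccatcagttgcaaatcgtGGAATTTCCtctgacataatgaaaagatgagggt
CXCL1, chr4:73869314-73869373, plus strand: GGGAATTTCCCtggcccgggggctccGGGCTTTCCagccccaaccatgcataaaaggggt
CXCL2, chr4:74099215-74099274, minus strand: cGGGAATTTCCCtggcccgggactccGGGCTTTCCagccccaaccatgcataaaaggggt
CXCL3, chr4:74038709-74038768, minus strand: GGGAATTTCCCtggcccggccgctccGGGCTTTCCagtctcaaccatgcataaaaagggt
IL32, chr16:3065309-3065368, plus strand: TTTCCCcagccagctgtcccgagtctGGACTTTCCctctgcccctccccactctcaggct
The matches printed for NFKBIA, TNFAIP3 and NFKB1 lay within the last 107 bases before the transcription start, and NFKBIA had a further match to GGNNNTTCC upstream of the printed stretch. CXCL1, CXCL2 and CXCL3, closely related neighbours on chromosome 4, shared a doublet of matches at nearly the same distance from the start. The run of capitals that opens the IL32 stretch is the end of a match that began upstream of it. A match describes letters only and was not tested as a binding site.

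Library depth ranged from 25482984 to 43310401 counts assigned to genes, with a median of 29843277. PAGE4 itself had 0 to 1 counts in the 4 vector libraries and 1001 to 1489 in the 4 PAGE4 libraries, as labelled. Of 6 genes listed as DU145 markers, VIM (9.45 to 22.6 against 413 to 499), CAV1 (1.37 to 2.97 against 64.4 to 119), AXL (0.124 to 0.318 against 253 to 433) and EGFR (41.1 to 200.3 against 300.5 to 400.1) were lower in all 22RV1 than in all DU145 libraries, in CPM (counts per 1000000 counts of a normalised library). CD44 (90.0 to 213 against 82.1 to 170) and LGALS1 (71.9 to 141 against 47.1 to 113) overlapped between the lines, with the higher mean in 22RV1. The 7 leukocyte markers summed to 1.03 to 2.35 CPM in 22RV1 and 0.444 to 3.15 CPM in DU145, and within them ITGAM had 3 and 3 counts with PBS and 24 and 9 with H2O2 in 22RV1, and 3 and 0 against 54 and 51 in DU145. The part of such markers in the results was not tested. HMOX1, an oxidative stress gene, was 40.3-fold higher with H2O2 in 22RV1 vector cells (95% counting interval 34.3 to 47.7) and 11.7-fold higher in 22RV1 PAGE4 cells (10.2 to 13.4). The 2 H2O2 libraries of this line were thus unequal in this gene. In DU145 cells HMOX1 was 1.38-fold and 1.18-fold higher.

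Where 2 values are given for a treatment, the vector library is named before the PAGE4 library. Tests are edgeR quasi-likelihood tests adjusted over all 19784 genes tested, log2 changes are followed by their standard error, and a change counts as passed at an adjusted p under 0.05. Since each condition had 1 library, the vector pair and the PAGE4 pair of a line served as the 2 replicates of the H2O2 effect. The p-values rest on the spread between such pairs, pooled over both lines and drawn towards the trend of all genes. That trend weighed 17.3 degrees of freedom against 2 residual ones, so a p-value can be small where the 2 pairs of a gene disagree. Of the 35 genes, 27 had enough counts to be tested, and IL6, CXCL5, CCL2, IL1A, IL1B, IL1RN, CSF2 and TNF did not.

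The 2 lines differed widely in these genes. The comparison of the lines averaged PBS and H2O2 libraries, so it does not describe untreated cells alone. In 22RV1 cells 7 genes had at most 3 counts in each of the 4 libraries (CXCL1, CXCL3, CXCL5, CCL2, CCL20, IL6 and CSF2), and in DU145 cells 3 did (CX3CL1, CCL2 and IL1B). CCL2, a monocyte chemokine, had fewer than 10 counts in all 8 libraries together and was near or under detection. Per kilobase of exon, the mean level over the 4 libraries of DU145 cells ran from RELA at 36.2 and LIF at 32.3 CPM per kb through TNFAIP2 (29.1), NFKBIA (27.4), NFKB2 (19.9), CXCL16 (16.8) and ICAM1 (15.8) to CXCL8 (6.44), CXCL2 (5.30) and NFKB1 (4.77), and IL6 was at 0.083 CPM per kb. RELA, LIF, TNFAIP2 and NFKBIA stood in an order in which the ranges of neighbours over the 4 libraries overlapped. In 22RV1 cells the highest were NFKB2 (19.4 CPM per kb), NFKBIA (17.4), RELA (17.4) and CXCL16 (10.1), whereas LIF (2.05), TNFAIP2 (2.41) and ICAM1 (0.502) were far lower. CX3CL1, the membrane-bound fractalkine, showed the opposite pattern, with 270 to 542 counts in the 22RV1 libraries and 0 to 1 in the DU145 libraries.

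Of the 27 tested genes, 22 were lower and 4 higher in 22RV1 than in DU145, where 36.3% of all genes were lower and 40.4% higher. To be tested, a gene had to reach 0.335 CPM, here of the total count, in at least 4 libraries. CXCL1, CXCL2, CXCL3, CXCL8, CCL20, IL18, IL24 and IL32 did so in all DU145 but not in all 22RV1 libraries, and CX3CL1 and PTGS2 in all 22RV1 but not in all DU145 libraries. For these 10 genes the line in which they are high carried them past the filter, so their line differences are a description without a test. Of the other 17, which both lines carried past it, 14 were lower in 22RV1, 2 were higher and NFKB2 did not pass. Among the 14, NFKBIA (-0.55) was higher in 22RV1 with PBS (70.1 and 73.1 against 47.7 and 60.7 CPM). NFKBIA was lower in 22RV1 only with H2O2 (49.5 and 43.02 against 121 and 143 CPM). Among genes well counted in both lines, ICAM1 was lower in 22RV1 by a log2 change of -4.95 ± 0.12 (adjusted p = 9.28e-19), LIF by -4.55 ± 0.09 (1.23e-19), TNFAIP2 by -3.63 ± 0.09 (4.58e-18) and RELB by -2.64 ± 0.12 (4.24e-14). The groups of 4 libraries did not overlap for any of these. Higher in 22RV1 were REL (0.46 ± 0.10, adjusted p = 0.000397) and NFKBIZ (1.74 ± 0.14, 2.98e-10). NFKB2 missed the threshold (0.02 ± 0.06, adjusted p = 0.805), and it passed when libraries were scaled to their total counts (0.22, adjusted p = 0.00425), a scaling that moved the median of all genes from 0.07 to 0.27. Within each construct NFKB2 was higher in 22RV1 with PBS (87.0 and 110.1 against 69.1 and 91.4 CPM). With H2O2 NFKB2 was lower in 22RV1 (112 and 125 against 136 and 149 CPM), so its average hides a crossing. In bulk RNA, fewer expressing cells and less RNA per cell cannot be told apart.

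**Figure D1:**
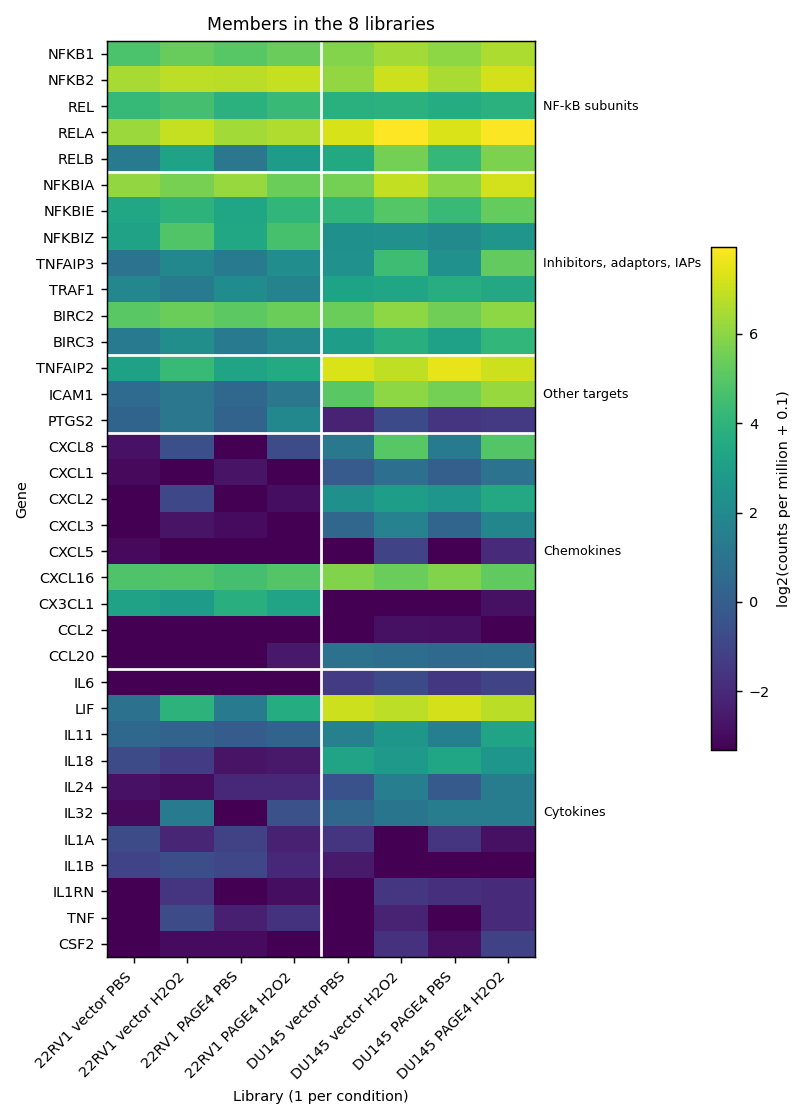
Levels of the 35 genes (rows, grouped by role) in the 8 libraries (columns, 1 per condition) as log2(CPM + 0.1), with brighter colour for higher levels; compare along a row, since values are not per length. The chemokine and cytokine rows are darkest in the 22RV1 columns, where CXCL1, CXCL3, CXCL5, CCL2, CCL20, IL6 and CSF2 had at most 3 counts in each library, and CX3CL1 is dark in DU145.

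Most tested genes moved with H2O2 in both lines, and the majority were higher. In 22RV1 cells 17 of 27 rose and 1 fell, where 15.2% of all genes rose and 16.9% fell. Among the 17, CXCL8, CXCL2 and IL32 were tested in 22RV1 only through their DU145 counts. With 22RV1 fitted alone ICAM1 did not pass by edgeR (0.64, adjusted p = 0.176). In DU145 cells 15 rose and 4 fell, where the shares over all genes were 19.2% and 22.8%. The median log2 change of the 27 genes was 0.61 in 22RV1 and 0.78 in DU145, beside medians of -0.01 and -0.05 over all genes. With genes at or under 3 counts in every library left out and CXCL2 at its lower bound, the medians were 0.54 over 24 genes and 0.78 over 26. The genes that rose in both lines numbered 11 (CXCL8, CXCL2, TNFAIP3, NFKB1, NFKB2, NFKBIE, RELA, RELB, BIRC2, BIRC3 and ICAM1), 40.7% of the 27, against 8.07% of all genes. The same limit holds here for CXCL8, CXCL2 and ICAM1. Scaling to total counts turned the split of calls over all genes in 22RV1 from 2999 higher and 3343 lower to 4265 higher and 2376 lower and moved their median from -0.01 to 0.11, and no call of the set changed direction under it, while CXCL16 was added to the rises in 22RV1. Without the 22RV1 vector H2O2 library 8 of the 17 rises in 22RV1 still passed, and the same number passed without the 22RV1 vector PBS library. In DU145 cells 10 to 15 rises passed when 1 library was left out.

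All 5 subunits rose with H2O2 in 22RV1 cells and 4 of 5 in DU145 cells. RELB, the partner of the NFKB2 product p52 in the non-canonical pathway, changed most. Its level was 2.33 and 2.12 CPM with PBS and 9.21 and 7.39 CPM with H2O2 in 22RV1 cells, and 11.2 and 17.9 CPM with PBS and 47.6 and 52.3 CPM with H2O2 in DU145 cells. Both H2O2 libraries of each line were above both PBS libraries. The log2 change was 1.90 ± 0.18 in 22RV1 (adjusted p = 1.36e-07) and 1.81 ± 0.15 in DU145 (1.56e-08), and the difference between the lines was 0.09 ± 0.23 (adjusted p = 0.851). RELA, which encodes the p65 subunit, stood at 76.2 and 82.8 CPM with PBS and 123 and 97.1 CPM with H2O2 in 22RV1 cells, and at 152 and 157 against 245 and 235 CPM in DU145 cells. It rose by 0.46 ± 0.10 (adjusted p = 0.001) and 0.63 ± 0.10 (2.13e-05). NFKB1, the p105 precursor of p50, was measured at 27.0 and 32.1 CPM with PBS and 39.6 and 40.5 CPM with H2O2 in 22RV1 cells, and at 57.0 and 65.8 against 83.8 and 92.7 CPM in DU145 cells. Its rise was similar in size, 0.45 ± 0.10 (adjusted p = 0.00185) and 0.52 ± 0.10 (0.00021). NFKB2, the p100 precursor of p52, showed 87.0 and 110.1 CPM with PBS and 112 and 125 CPM with H2O2 in 22RV1 cells, so that the PAGE4 PBS library nearly reached the vector H2O2 library. In DU145 cells the same gene went from 69.1 and 91.4 CPM to 136 and 149 CPM. The change was 0.27 ± 0.09 in 22RV1 (adjusted p = 0.0244) and 0.84 ± 0.09 in DU145 (4.4e-07), and it was smaller in 22RV1 by 0.56 ± 0.13 on the log2 scale (adjusted p = 0.00383). REL, which encodes c-Rel, was at 18.5 and 14.7 CPM with PBS and 24.1 and 19.8 CPM with H2O2 in 22RV1 cells and at 14.001 and 12.4 against 14.6 and 14.5 CPM in DU145 cells. It rose in 22RV1 only by the test (0.40 ± 0.14, adjusted p = 0.032), with 0.14 ± 0.15 in DU145 (0.479) and a difference of 0.26 ± 0.20 that did not pass (0.411). REL shares 32.88% of its 50-base transcript words with another annotated gene, so its counts may be split. The calls of NFKB1, NFKB2 and RELA in 22RV1 were lost without either vector library of that line, and that of REL without any 1 of the 8 libraries.

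Of the inhibitors and feedback genes, only NFKBIA changed in opposite directions in the 2 lines. TNFAIP3 and NFKBIE rose in both, and NFKBIZ passed in 22RV1 only. NFKBIA encodes IkB-alpha, the main inhibitor that NF-kB induces against itself, and lies at chr14:35401079-35404749 (GRCh38, minus strand). It was at 70.1 and 73.1 CPM with PBS and at 49.5 and 43.02 CPM with H2O2 in 22RV1 cells. In DU145 cells it was at 47.7 and 60.7 CPM with PBS and at 121 and 143 CPM with H2O2. The H2O2 libraries were thus the lowest of 22RV1 and the highest of DU145. NFKBIA fell in 22RV1 (-0.63 ± 0.09, adjusted p = 3.39e-05) and rose by 1.29 ± 0.09 in DU145 (2.79e-09), a difference of -1.92 ± 0.13 (adjusted p = 5.12e-09), and it was the only tested gene of the set that fell in 22RV1 and rose in DU145. TNFAIP3 (chr6:137867214-137883314, plus strand) encodes A20, a ubiquitin-editing enzyme that shuts off signalling upstream of the IkB kinases. Its values were 1.84 and 2.46 CPM with PBS and 3.74 and 4.49 CPM with H2O2 in 22RV1 cells, and 5.04 and 5.10 against 21.5 and 37.7 CPM in DU145 cells. It rose in both lines, by 0.94 ± 0.23 (adjusted p = 0.00316) and 2.49 ± 0.21 (1.27e-08), and less in 22RV1 (difference -1.55 ± 0.30, adjusted p = 0.00116). That difference missed the threshold without the DU145 PAGE4 H2O2 library. NFKBIE, which encodes IkB-epsilon, was at 10.4 and 9.81 CPM with PBS and 15.5 and 16.9 CPM with H2O2 in 22RV1 cells and at 16.9 and 19.7 against 31.6 and 38.8 CPM in DU145 cells. It rose by 0.68 ± 0.14 (adjusted p = 0.000766) and 0.94 ± 0.13 (1.22e-05), and the difference between the lines did not pass (-0.26 ± 0.19, adjusted p = 0.391). NFKBIZ encodes the nuclear IkB-zeta, a co-activator rather than a cytoplasmic inhibitor. In 22RV1 cells it went from 8.79 and 10.8 CPM to 29.6 and 25.2 CPM, and in DU145 cells it stayed between 3.99 and 5.70 CPM in all 4 libraries. The change was 1.49 ± 0.18 in 22RV1 (adjusted p = 2.22e-06) against 0.27 ± 0.21 in DU145 (0.33), and the difference passed (1.22 ± 0.27, adjusted p = 0.00317).

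Of the signalling and survival genes, BIRC2 and BIRC3 rose in both lines. They encode the inhibitor of apoptosis proteins cIAP1 and cIAP2, ubiquitin ligases of the TNF receptor complex. BIRC3 was at 2.31 and 2.46 CPM with PBS and 4.70 and 3.89 CPM with H2O2 in 22RV1 cells, and at 7.79 and 8.58 against 13.6 and 17.5 CPM in DU145 cells. It rose by 0.85 ± 0.22 (adjusted p = 0.00554) and 0.92 ± 0.20 (0.000824). These calls of BIRC3 were lost without either vector library of 22RV1 and without either PAGE4 library of DU145. BIRC2 had 33.4 and 34.6 CPM with PBS and 42.9 and 41.8 CPM with H2O2 in 22RV1 cells, and 42.1 and 44.7 against 65.1 and 65.9 CPM in DU145 cells. Its rise was 0.32 ± 0.10 (adjusted p = 0.0201) and 0.59 ± 0.10 (8.06e-05), the former lost without either 22RV1 vector library. TRAF1, an adaptor of TNF receptors, was measured at 3.65 and 4.31 CPM with PBS and 2.49 and 3.22 CPM with H2O2 in 22RV1 cells, and at 9.21 and 12.7 against 9.92 and 11.0 CPM in DU145 cells. It passed in neither line (-0.49 ± 0.22, adjusted p = 0.101, and -0.05 ± 0.20, 0.878).

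Among the 9 chemokines, 7 were tested, of which 2 rose in 22RV1 and 3 rose and 1 fell in DU145. CXCL8 encodes interleukin-8, the main neutrophil attractant (chr4:73740519-73743716, plus strand). In DU145 cells it had 60 and 65 counts with PBS and 802 and 749 counts with H2O2, that is 2.19 and 2.40 against 32.2 and 29.9 CPM. In 22RV1 cells it had 2 and 0 counts with PBS and 22 and 14 counts with H2O2. Both H2O2 libraries of each line were far above both PBS libraries. The vector pair gave a 14.7-fold higher level with H2O2 in DU145 cells (95% counting interval 11.3 to 19.4) and the PAGE4 pair a 12.4-fold one (9.64 to 16.3). In 22RV1 cells the vector pair gave 12.7-fold (3.13 to 112), and the PAGE4 pair at least 6.63-fold against a floor of 3 counts per library. The fitted change was 3.75 ± 0.23 in DU145 (adjusted p = 1.92e-10) and 4.29 ± 0.67 in 22RV1 (5.93e-05), with no difference between the lines that passed (0.54 ± 0.73, adjusted p = 0.67), although the level reached with H2O2 stayed near 0.5 CPM in 22RV1 cells.

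CXCL1, CXCL2 and CXCL3 encode the GRO chemokines, which act on the same receptor CXCR2. CXCL2 had 133 and 162 counts with PBS and 194 and 276 with H2O2 in DU145 cells, a rise of 0.78 ± 0.26 (adjusted p = 0.0215). In 22RV1 cells it had 0 and 0 counts with PBS and 17 and 1 with H2O2. The vector pair was at least 6.56-fold higher with H2O2, but the call in 22RV1 (adjusted p = 0.000775) rested on that pair alone, with adjusted p = 0.434 without the vector H2O2 library and 0.433 without the vector PBS library. CXCL3 had 33 and 32 counts with PBS and 77 and 87 with H2O2 in DU145 cells, and it rose (1.45 ± 0.47, adjusted p = 0.0177). The DU145 calls of CXCL2 and CXCL3 were lost without any 1 of the DU145 libraries. In 22RV1 cells CXCL3 had 0 and 1 counts with PBS and 2 and 0 with H2O2. CXCL1 had 23 and 26 counts with PBS and 41 and 46 with H2O2 in DU145 cells, 1.96-fold (1.15 to 3.42) and 1.91-fold (1.16 to 3.22) by counting, but it did not pass (0.95 ± 0.53, adjusted p = 0.167). In 22RV1 cells it had 1 and 2 counts with PBS and 0 and 0 with H2O2. The 3 genes share 4.57% (CXCL1), 13.37% (CXCL2) and 6.01% (CXCL3) of their 50-base words with each other, so some reads may be split among them.

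CXCL16, a membrane-bound ligand of CXCR6, behaved otherwise. It was at 28.4 and 24.2 CPM with PBS and 29.7 and 30.7 CPM with H2O2 in 22RV1 cells, and at 55.5 and 55.3 against 41.3 and 35.9 CPM in DU145 cells. It fell in DU145 (-0.52 ± 0.11, adjusted p = 0.000923, lost without either DU145 PAGE4 library), did not pass in 22RV1 (0.20 ± 0.11, 0.2), and the difference passed (0.72 ± 0.16, adjusted p = 0.00331). CX3CL1 was at 8.79 and 13.5 CPM with PBS and 7.37 and 9.55 CPM with H2O2 in 22RV1 cells and did not pass (-0.38 ± 0.22, adjusted p = 0.211). CCL20, the ligand of CCR6, had 47 and 36 counts with PBS and 38 and 37 with H2O2 in DU145 cells and 0, 0, 0 and 2 counts in 22RV1 cells, with no change in DU145 larger than its error (-0.01 ± 0.51, adjusted p = 1.0). CXCL5, a further CXCR2 ligand that was not tested, had 0 and 0 counts with PBS and 10 and 4 with H2O2 in DU145 cells, at least 3.66-fold and 1.44-fold higher against the floor of 3 counts. In 22RV1 cells it had 0 to 1 counts.

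LIF (chr22:30240453-30246759, minus strand), a cytokine of the IL-6 family that signals through IL6ST and LIFR, changed with opposite signs in 22RV1 and DU145. In 22RV1 cells it was at 1.75 and 2.29 CPM with PBS and at 15.3 and 12.5 CPM with H2O2. In DU145 cells it was at 135 and 146 CPM with PBS and at 112 and 108 CPM with H2O2. Both treatments were thus separated in each line, and even the highest 22RV1 library was below the lowest DU145 library. LIF rose by 2.79 ± 0.15 in 22RV1 (adjusted p = 5.89e-11) and fell by 0.35 ± 0.10 on the log2 scale in DU145 (0.00946), a difference of 3.14 ± 0.18 (adjusted p = 4.58e-10). The fall in DU145 missed the threshold without the DU145 PAGE4 PBS or the DU145 PAGE4 H2O2 library. IL11, of the same family, was at 1.26 and 0.871 CPM with PBS and 1.09 and 1.13 CPM with H2O2 in 22RV1 cells, and at 2.92 and 2.85 against 6.11 and 9.41 CPM in DU145 cells. It rose in DU145 (1.40 ± 0.29, adjusted p = 0.000667, and 0.067 and 0.0947 without the PAGE4 PBS or the PAGE4 H2O2 library), and the difference between the lines passed narrowly (-1.33 ± 0.45, adjusted p = 0.0436). IL6 itself, the family's founder, had 0 counts in each of the 4 22RV1 libraries, which allows up to 3 counts in a library, and had 8 and 7 counts with PBS and 12 and 10 with H2O2 in DU145 cells. IL6 had too few counts to be tested.

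IL32, which encodes a cytokine that induces TNF and IL-8, is at chr16:3065297-3082192 (plus strand). It had 1 and 0 counts with PBS and 96 and 17 counts with H2O2 in 22RV1 cells. In DU145 cells it had 33 and 72 counts with PBS and 50 and 67 with H2O2. Only in 22RV1 were the treatments separated. The vector pair of 22RV1 gave a 111-fold ratio with a counting interval of 19.5 to 4434, and the PAGE4 pair at least 8.06-fold. The rise passed in 22RV1 (adjusted p = 2.05e-06), not in DU145 (0.34 ± 0.39, adjusted p = 0.527), and the difference passed (adjusted p = 7.1e-05). IL24, a cytokine of the IL-10 family, had 17 and 22 counts with PBS and 67 and 66 with H2O2 in DU145 cells and 1 to 6 counts in the 22RV1 libraries. It rose in DU145 (1.89 ± 0.50, adjusted p = 0.00425), which held without the DU145 PAGE4 PBS library but not without any of the other DU145 libraries. IL18, an IL-1 family cytokine released after caspase cleavage, was at 9.50 and 10.2 CPM with PBS and 6.51 and 5.94 CPM with H2O2 in DU145 cells. It fell there (-0.66 ± 0.25, adjusted p = 0.0389), a call lost without any 1 of the DU145 libraries. In 22RV1 cells IL18 had 22 and 2 counts with PBS and 11 and 2 with H2O2.

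The cytokines that classically start the pathway were scarce. TNF had 0 and 4 counts with PBS and 20 and 6 with H2O2 in 22RV1 cells, and 0 and 0 against 3 and 4 in DU145 cells. The vector pair of 22RV1 was at least 7.72-fold higher with H2O2, whereas the PAGE4 pair was 2.13-fold higher with a counting interval of 0.506 to 10.3. IL1A, which encodes IL-1 alpha, had 23 and 14 counts with PBS and 5 and 3 with H2O2 in 22RV1 cells, and 6 and 6 against 0 and 1 in DU145 cells. Its ratio was 0.252 (0.0747 to 0.677) in the 22RV1 vector pair and 0.305 (0.0561 to 1.09) in the PAGE4 pair, so that all 4 pairs had fewer counts with H2O2, against the direction of most of the set. IL1B, which encodes IL-1 beta, had 17 and 17 counts with PBS and 21 and 4 with H2O2 in 22RV1 cells, and 2 and 0 against 0 and 0 in DU145 cells. IL1RN, the IL-1 receptor antagonist, had 0 to 9 counts, and CSF2, the granulocyte-macrophage colony stimulating factor, 0 to 9 counts in the 8 libraries. None of these could be tested.

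The 3 further targets rose in 22RV1 cells and parted in DU145 cells. TNFAIP2, a gene first known by its induction by TNF, was at 8.58 and 9.31 CPM with PBS and 19.0 and 11.9 CPM with H2O2 in 22RV1 cells, and at 156 and 181 against 116 and 134 CPM in DU145 cells. It rose by 0.77 ± 0.14 in 22RV1 (adjusted p = 0.000207) and fell by 0.43 ± 0.11 on the log2 scale in DU145 (0.0047), a difference of 1.20 ± 0.18 (adjusted p = 7.19e-05). The rise was lost without either vector library of 22RV1, and the fall without any 1 of the DU145 libraries. ICAM1, an adhesion molecule for leukocyte integrins, stood at 1.43 and 1.29 CPM with PBS and 2.08 and 2.12 CPM with H2O2 in 22RV1 cells, and at 33.2 and 47.4 against 64.6 and 72.5 CPM in DU145 cells. It rose by 0.61 ± 0.21 (adjusted p = 0.028) and 0.78 ± 0.12 (3.37e-05), the former not without any 1 of the 22RV1 libraries. PTGS2 encodes cyclooxygenase-2, the inducible enzyme of prostaglandin synthesis. It had 51 and 44 counts with PBS and 82 and 106 with H2O2 in 22RV1 cells, and 3 and 6 against 12 and 7 in DU145 cells. The rise passed in 22RV1 (1.33 ± 0.42, adjusted p = 0.0199, lost without either PAGE4 library of that line) and not in DU145 (1.17 ± 0.70, 0.196), and the difference between the lines was 0.16 ± 0.93 (0.945).

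**Figure D2:**
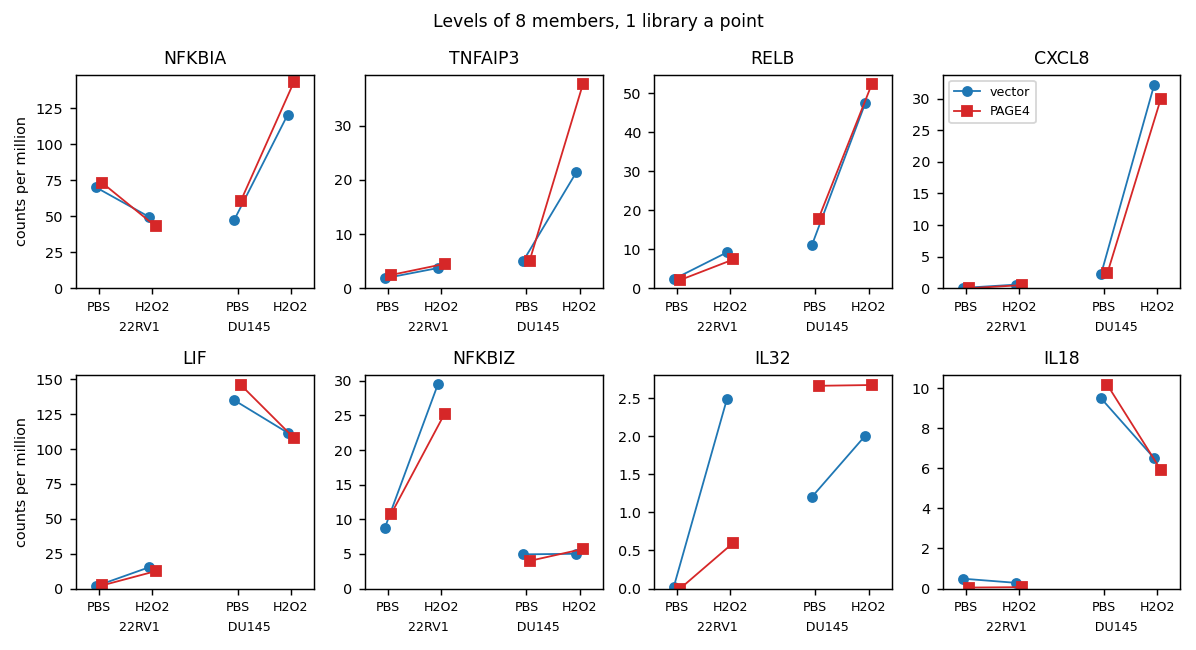
Levels in CPM (vertical axes from 0, each panel on its own scale) of 8 genes, with PBS and H2O2 joined by a line for vector cells (circles) and PAGE4 cells (squares), 22RV1 on the left and DU145 on the right of each panel; each point is 1 library and there are no error bars. NFKBIA falls in 22RV1 from 70.1 and 73.1 to 49.5 and 43.02 CPM and rises in DU145, LIF shows the reverse, and RELB rises in both.

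Of the 27 genes, 10 answered H2O2 differently in the 2 lines by the test of the difference. The change was higher in 22RV1 for 6 (IL32, CXCL2, LIF, NFKBIZ, TNFAIP2 and CXCL16), where it was for 10.6% of all genes, and lower for 4 (NFKBIA, TNFAIP3, IL11 and NFKB2), where the share over all genes was 8.87%. LIF and TNFAIP2 rose in 22RV1 and fell in DU145, and NFKBIA did the reverse. Leaving out 1 library ended the calls of CXCL2 (either 22RV1 vector library), NFKB2 and NFKBIZ (either DU145 vector library), CXCL16 (either DU145 PAGE4 library), TNFAIP3 (the DU145 PAGE4 H2O2 library) and IL11 (either 22RV1 vector library or any DU145 library but the vector PBS one). The differences of NFKBIA, LIF, TNFAIP2 and IL32 passed whichever library was left out. RELA became a call without the 22RV1 vector PBS library (-0.41, adjusted p = 0.0226) or the 22RV1 vector H2O2 library (-0.45, 0.013). For the other 17 genes the difference did not pass, which does not show that the lines acted alike. Its standard error was small for NFKB1 (-0.08 ± 0.14) and RELA (-0.17 ± 0.14) and large for PTGS2 (0.16 ± 0.93).

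The H2O2 change of vector cells and of PAGE4 cells can be set side by side, without a test, because each of these ratios compares 1 library with 1 library. Among the 21 genes of 22RV1 cells with more than 3 counts in at least 1 library of each pair, 17 were higher with H2O2 in both pairs, 3 lower in both and 1 (IL11) went opposite ways. The median log2 ratio was 0.58 in the vector pair and 0.43 in the PAGE4 pair, and 13 of the 21 had the smaller ratio in PAGE4 cells. In DU145 cells 20 of 26 were higher in both pairs, 4 lower in both and 2 (TRAF1 and CCL20) opposite, with medians of 0.76 and 0.59 and 17 of 26 smaller in PAGE4 cells. These counts and medians were not taken over all genes, so a smaller ratio in PAGE4 cells is not shown to be particular to this set. For LIF in 22RV1 the ratio was 8.74 (6.89 to 11.2) in vector and 5.44 (4.31 to 6.92) in PAGE4 cells. TNFAIP2 gave 2.21 (1.95 to 2.51) and 1.28 (1.10 to 1.48), and NFKBIZ 3.37 (2.999 to 3.79) and 2.34 (2.07 to 2.64). These intervals cover counting error only. Those of TNFAIP2 and NFKBIZ do not overlap, whereas those of LIF overlap at their edges. PTGS2 in 22RV1 went the other way, 1.86 (1.30 to 2.69) in vector and 3.42 (2.39 to 4.98) in PAGE4 cells, with overlapping intervals. In DU145 cells TNFAIP3 was 4.25-fold (3.52 to 5.17) higher in vector and 7.38-fold (6.17 to 8.89) in PAGE4 cells, IL11 2.09-fold (1.58 to 2.77) and 3.31-fold (2.55 to 4.33), and RELB 4.24-fold (3.73 to 4.82) and 2.93-fold (2.64 to 3.26). HMOX1 also had the smaller ratio in the PAGE4 pair of 22RV1, as given above, and its part in these ratios was not tested.

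**Figure D3:**
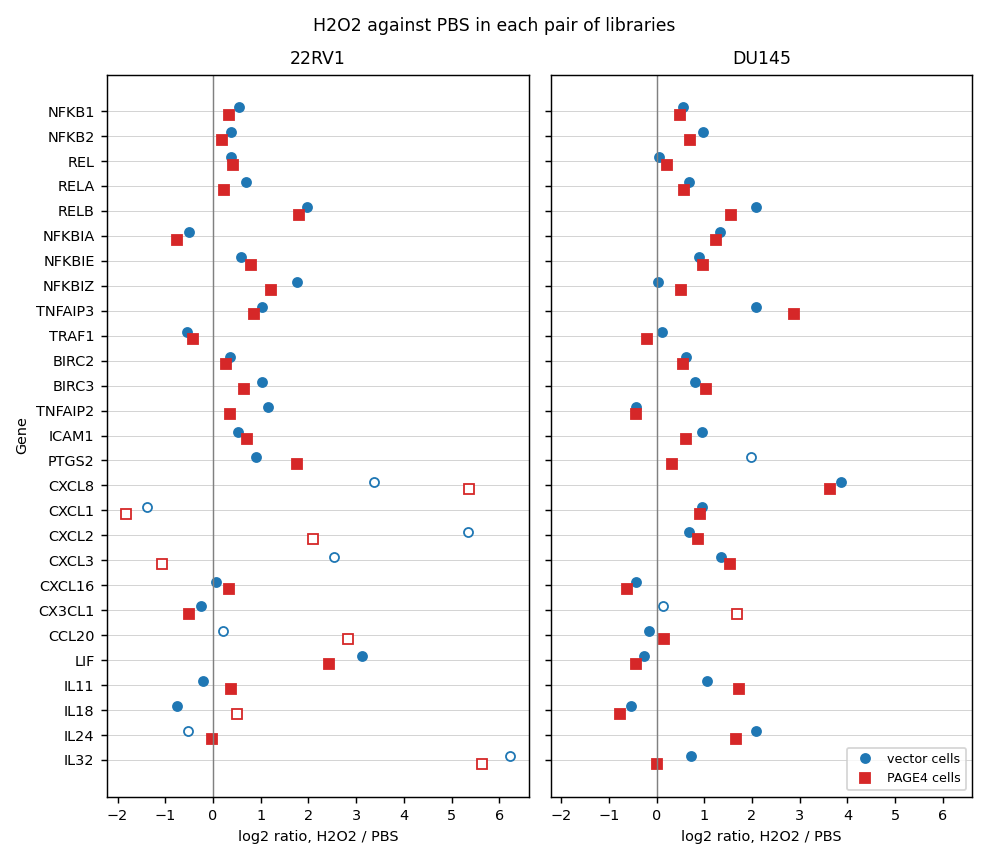
Log2 ratio of H2O2 to PBS (horizontal axis, pseudocount 0.5) for the 27 tested genes (rows) in vector cells (circles) and PAGE4 cells (squares) of 22RV1 (left) and DU145 (right); open symbols mark a ratio with 3 counts or fewer in either library. Most symbols lie right of 0, with NFKBIA left of 0 in 22RV1 only and LIF left of 0 in DU145 only.

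Few of these genes passed in the comparison of PAGE4 with vector cells, as was so over all genes. A gene that did not pass is not thereby shown to be unchanged. In 22RV1 cells 0 of 27 rose and 2 fell, where 2.51% of all genes rose and 2.69% fell. IL18 had 22 counts in the vector and 2 in the PAGE4 library with PBS, and 11 and 2 with H2O2. IL32 had 1 and 0 counts with PBS and 96 and 17 with H2O2. Both genes had fewer counts in the PAGE4 library of each pair, at levels where a few reads decide. Neither reached the count filter in all 22RV1 libraries, so both were tested in 22RV1 only through their DU145 counts. IL18 fell by 2.70 ± 0.63 on the log2 scale (adjusted p = 0.0145) and IL32 by 2.06 ± 0.59 (0.0471). The IL18 call was lost without the 22RV1 vector PBS library (adjusted p = 0.28) or the PAGE4 PBS library (0.282), and the IL32 call without the 22RV1 vector H2O2 library (0.795), the 22RV1 PAGE4 H2O2 library (0.787) or the DU145 PAGE4 PBS library (0.0553). By edgeR no member rose in 22RV1, and DESeq2 also called 0 higher, giving CCL20, CXCL1, CXCL3, IL24 and PTGS2 no adjusted p. At an unadjusted p under 0.05 by edgeR, 2 were higher and 5 lower, and the share of all genes at that limit was not counted.

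In DU145 cells edgeR called 0 of 27 genes, where 0.227% of all genes rose and 0.096% fell. DESeq2 called 0 in either direction and gave CCL20, CXCL1, CXCL3, IL24 and PTGS2 no adjusted p. At an unadjusted p under 0.05 by edgeR, 5 were higher (NFKB2, NFKBIA, ICAM1, RELB and TNFAIP3) and 0 lower. The share of all genes at that unadjusted limit was not counted, so these counts are no result about the set. RELB was at 11.2 CPM in the vector and 17.9 CPM in the PAGE4 library with PBS, 1.59-fold (1.38 to 1.84) by counting, and at 47.6 and 52.3 CPM with H2O2, 1.10-fold (1.02 to 1.19). ICAM1 went from 33.2 to 47.4 CPM with PBS (1.43-fold, 1.31 to 1.56) and from 64.6 to 72.5 CPM with H2O2 (1.12-fold, 1.05 to 1.20). NFKBIA was 1.27-fold (1.18 to 1.37) and 1.19-fold (1.13 to 1.25) higher in the PAGE4 libraries. For RELB, ICAM1, NFKBIA and NFKB2 both pairs pointed the same way. TNFAIP3 had 138 counts in both PBS libraries, and 534 in the vector and 944 in the PAGE4 library with H2O2, so its difference rested on the H2O2 pair. The adjusted p-values of the 5 genes by edgeR lay between 0.281 (NFKBIA) and 0.526 (TNFAIP3). The median over the 27 genes was 0.18, with 19 above 0, beside -0.00 over all genes, with 9706 of 19784 above 0. Without CX3CL1, which had 0 to 1 counts in DU145 libraries, the median was 0.17 over 26 genes. With DU145 cells fitted alone these 5 genes passed, and in that fit 1.62% of 15924 genes were higher and 0.992% lower. IL18 was at 9.50 and 10.2 CPM with PBS and 6.51 and 5.94 CPM with H2O2 in vector and PAGE4 libraries of DU145. The PAGE4 effect differed between the lines for IL18 (-2.68 ± 0.69, adjusted p = 0.0423) and IL32 (-2.83 ± 0.71, 0.0373), both lower in 22RV1. The IL18 difference missed the threshold without the vector PBS or PAGE4 PBS library of 22RV1 or any 1 DU145 library, and the IL32 difference without the vector H2O2 or PAGE4 H2O2 library of 22RV1 or the vector PBS, vector H2O2 or PAGE4 PBS library of DU145. None differed in the other direction, and over all genes 1.18% did in that and 1.31% in the lower direction. At an unadjusted p under 0.05 the counts of the set were 0 higher and 6 lower, again without a count over all genes. DESeq2 called 0 in either direction, giving IL32, CCL20, CXCL1, CXCL3, IL24 and PTGS2 no adjusted p.

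The comparison the study itself made was between PAGE4 and vector cells with H2O2, by a fold of more than 1.5 in normalised counts, and with 1 library on each side it has no test. Of 23 genes with a mean normalised count of at least 10 in 22RV1, 1 was higher (PTGS2) and 3 lower (IL32, IL1B and TNFAIP2), where 11.3% of 20264 genes were higher and 12.2% lower. By counting the ratios were 1.76 for PTGS2 (1.31 to 2.38), 0.241 for IL32 (0.135 to 0.407), 0.260 for IL1B (0.0648 to 0.770) and 0.627 for TNFAIP2 (0.549 to 0.714). Of 25 such genes in DU145, 2 were higher (TNFAIP3 and IL11) and 0 lower, where 7.28% of 18088 genes were higher and 8.22% lower. TNFAIP3 was 1.76-fold (1.58 to 1.96) and IL11 1.54-fold (1.25 to 1.90) higher. These counts were near the shares over all genes, and no gene passed the fold in both lines. With PBS, CX3CL1 was higher in 22RV1 and 2 genes lower (CXCL8 with 0 against 2 counts and IL32 with 0 against 1, both at or under the floor of 3 counts), where 8.51% of all genes were higher and 11.5% lower. In DU145, 2 (IL32 and RELB) were higher and 0 lower, where the shares were 7.72% and 7.88%.

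**Figure D4:**
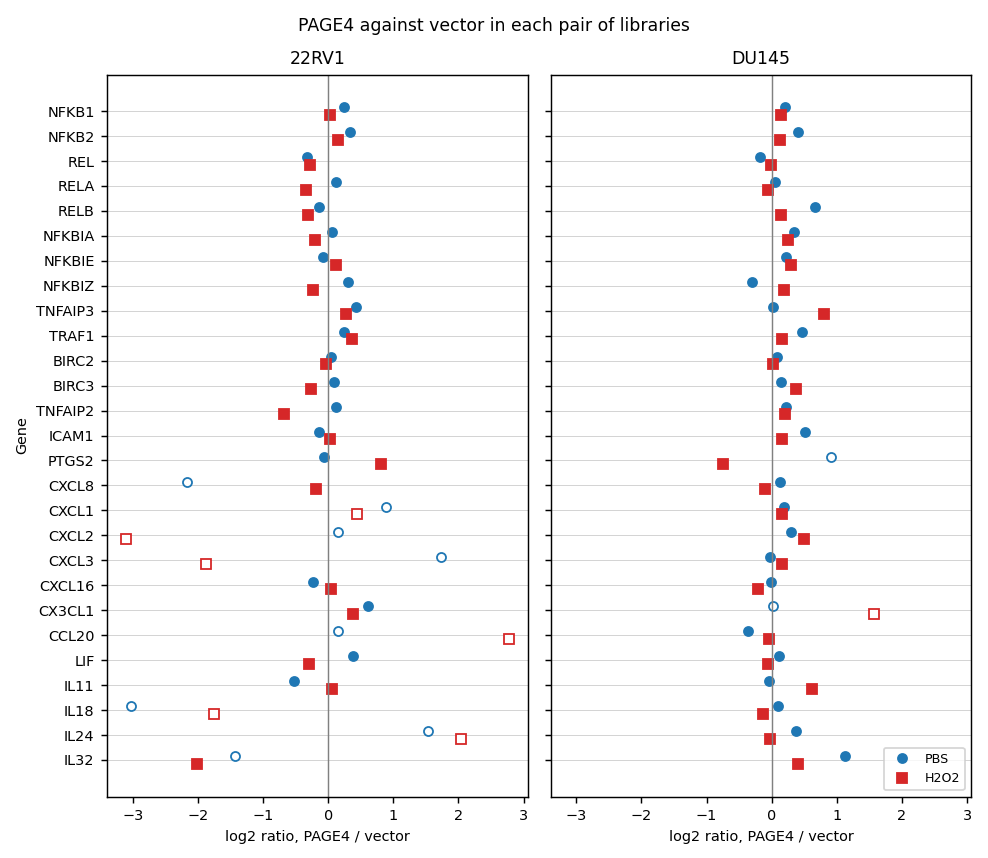
Log2 ratio of PAGE4 to vector cells (horizontal axis, pseudocount 0.5) for the 27 tested genes (rows) with PBS (circles) and H2O2 (squares) in 22RV1 (left) and DU145 (right); open symbols mark a ratio with 3 counts or fewer in either library. Most symbols lie near 0, the far ones in 22RV1 are mainly open, and IL18 and IL32 lie left of 0 in both 22RV1 pairs.

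A list of 75 further genes of the pathway (receptors, adaptors, kinases, inhibitors and targets) was all present in the tables, and 59 were tested. With H2O2, 19 rose and 4 fell in 22RV1 (median 0.25) and 24 rose and 7 fell in DU145 (median 0.21), beside the shares over all genes given above. The largest changes in 22RV1 were in LTA (3.97 ± 0.85, adjusted p = 0.00118), which encodes the TNF-related cytokine lymphotoxin alpha, IL6R (2.98 ± 0.12, 1.53e-12), the ligand-binding chain of the IL-6 receptor, and CFB (2.36 ± 0.78, 0.0252), complement factor B. CFB had 1 and 10 counts with PBS and 43 and 9 with H2O2, so that its rise rested on the vector pair. LTA had 0 and 6 counts with PBS and 65 and 21 with H2O2 in 22RV1 cells, and 5 and 1 against 41 and 25 in DU145 cells. IL6R went from 16.5 and 12.4 CPM to 155 and 80.8 CPM in 22RV1 cells and from 27.8 and 23.8 CPM to 75.9 and 73.5 CPM in DU145 cells. In DU145 the largest were again LTA (3.61 ± 0.85, adjusted p = 0.00187), then LCN2 (2.67 ± 0.27, 1.9e-07), the iron-binding lipocalin-2, and TNFRSF9 (2.23 ± 0.30, 6.62e-06), the receptor 4-1BB. LCN2 had 63 and 93 counts with PBS and 369 and 543 with H2O2 in DU145 cells. The lines differed in 14 of the 59 genes, 6 with the higher change in 22RV1 and 8 with the lower, where 10.6% and 8.87% of all genes did, led by LCN2 (-2.14 ± 0.61, adjusted p = 0.0182), the IkB-like BCL3 (1.52 ± 0.14, 2.93e-07) and IL6R (1.44 ± 0.16, 3.63e-06). BCL3 was at 17.3 and 25.1 CPM with PBS and 30.3 and 35.6 CPM with H2O2 in 22RV1 cells, and at 121 and 111 against 66.9 and 59.8 CPM in DU145 cells. TNFRSF1A, the main TNF receptor, named after its values were seen, rose by 0.55 ± 0.08 in 22RV1 (adjusted p = 3.48e-05) and fell by 0.89 ± 0.08 on the log2 scale in DU145 (4.59e-08).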

How the data were processed

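RNA of 22RV1 and DU145 cells was sequenced in 8 libraries, 1 for each combination of line, construct and treatment. The study's methods and the submitters' processing notes name HISAT2 2.1.0 for alignment (genome GRCh38) and featureCounts 1.6.0 for counting. What the authors deposited are raw read counts by gene in 1 table for each line. The annotation, the strand setting and the handling of reads that map to several genes are not given in the sources used here. The labels name Trizol for RNA extraction, the paper a column kit.

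From the counts, edgeR 4.0.16 (R 4.3.3) was used with TMM scaling, filterByExpr with the line as group, and a quasi-likelihood fit of line, construct within line and H2O2 within line over all 8 libraries (6 coefficients, 2 residual degrees of freedom). P-values were adjusted by Benjamini-Hochberg over 19784 genes. The residual spread is the construct-by-H2O2 interaction of each line, and nothing says that libraries came from separate cultures. Ratios between 2 libraries carry exact 95% binomial intervals, which like the floor of 3 counts cover counting error only. CPM per kb used GENCODE 44 union exon lengths. The 1.5-fold comparison used DESeq2 1.42.0 size factors within a line and a mean of at least 10, with a pseudocount of 0.5 for log2 values only. On simulated data the fit found 200 of 200 genes changed 4-fold in DU145 among 19510, with 9 false calls. The simulation gave all genes the same dispersion, held no construct effect and left genes of low level unchanged. It therefore says nothing about smaller changes, about genes with few counts or about the spread between real pairs. The genes, the lists and the rules for naming genes were chosen with earlier results of these data known. Genes were named with values in every library where they stood on a list of 18 or passed in at least 1 comparison, and pathway genes where they were the 3 largest called in an H2O2 comparison. Alternatives were other scalings, filters and tests, each line fitted alone, and leaving out each library. Promoters and motifs used RefSeq windows. Python 3.11.15 with pandas 2.3.3 and scipy 1.17.1 did the rest. A marker list of luminal prostate cells is not reported here.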

Additional observations from a re-analysis of the deposited data

Results flagged for a closer look

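For 12 results the effect of H2O2 or of PAGE4 differed between 22RV1 and DU145 by the edgeR test of the difference itself (log2 change in 22RV1 minus that in DU145, adjusted over all genes). For H2O2 the difference was -1.92 for NFKBIA, -1.55 for TNFAIP3, -1.33 for IL11 and -0.56 for NFKB2, all with the smaller or opposite change in 22RV1. It was 0.72 for CXCL16, 1.20 for TNFAIP2, 1.22 for NFKBIZ, 3.14 for LIF, 5.23 for CXCL2 and 6.33 for IL32. The fitted values of CXCL2 and IL32 are no bounds, since these genes had 0 to 1 counts in the PBS libraries of 22RV1, and CXCL2 lost its call without either vector library of that line. For PAGE4 the difference was -2.83 for IL32 and -2.68 for IL18, both with few counts in 22RV1 cells.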

How the results depend on the processing

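Across 2476 values of single genes under the alternatives, no call turned its direction, 102 calls were lost and 27 gained. Of these, 85 and 16 came from leaving out a library, and 143 values that did not pass changed sign. A gene that an alternative did not test, or gave no adjusted p, is not among these values. The H2O2 calls in 22RV1 of PTGS2 under DESeq2 are therefore not counted as lost. The same holds for CXCL8, CXCL2 and IL32 with that line fitted alone. Leaving out each library in turn gave 8 to 16 genes higher and 1 lower for H2O2 in 22RV1, 10 to 15 higher and 0 to 4 lower for H2O2 in DU145, 5 to 6 higher and 2 to 4 lower for the difference of these, 0 to 1 higher and 1 to 4 lower for PAGE4 in 22RV1, 0 to 1 higher and 0 lower for PAGE4 in DU145, 0 higher and 0 to 4 lower for the difference of these, and 4 to 5 higher and 22 lower for 22RV1 against DU145. Of the 2 genes lower with PAGE4 in 22RV1, the DESeq2 Wald test left 1 (IL32 adjusted p = 0.196). A mean count of at least 50 left 1, since IL32 did not reach it and was not tested. Fitting each line alone left 0, since neither gene passed the count filter in 22RV1 alone. Fitting each line alone gave 5 genes higher with PAGE4 in DU145 in place of 0, while over all genes it gave 258 higher of 15924 in place of 45 of 19784. The 2 genes with a lower PAGE4 effect in 22RV1 than in DU145 became 0 with the DESeq2 Wald test (which gave IL32 no adjusted p) and 4 with no filter on low counts. They became 1 with a mean count of at least 50, again because IL32 was not tested there. For PAGE4 against vector with H2O2, no count minimum gave 3 higher and 9 lower in 22RV1 and 5 higher and 3 lower in DU145. A mean of at least 50 left 1 lower in 22RV1, and a fold of 2 left 0 higher in both lines. The cause was not tested, apart from fewer or more genes entering under the filters. The DESeq2 Wald test called 13 genes higher for H2O2 in 22RV1 and 13 in DU145. In 22RV1 it gave CCL20, CXCL1, CXCL3, IL24 and PTGS2 no adjusted p for H2O2.

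The labels carry no replicate numbers, so no block by replicate number could be fitted. The vector and PAGE4 pairs of each line already enter the fit as a term. Low counts limit the chemokines and cytokines of 22RV1, of which 7 had at most 3 counts in every library. The 22RV1 libraries held 25482984 to 43310401 counts and the DU145 libraries 26124000 to 30107611.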

Other observations

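Some genes of the wider pathway list passed for PAGE4, given here beside the shares over all genes. In 22RV1 cells 4 of 59 were lower, where 2.69% of all genes were. They were ZC3H12A (-0.85, adjusted p = 0.0234), which encodes the RNase Regnase-1, IL6R (-0.70, 0.000666), IER3 (-0.67, 0.00659) and LIFR (-0.37, 0.0441). BCL3 (0.38, adjusted p = 0.0368) and the IL-1 receptor IL1R1 (0.74, 0.00489) were higher, where 2.51% of all genes were. In DU145 cells PLAU, which encodes urokinase, was the only one of the 59 to pass (0.57, adjusted p = 0.0274). Over all genes 0.227% were higher there. IL1R1 alone had a PAGE4 effect that differed between the lines (0.86, adjusted p = 0.0372), where 1.18% of all genes differed in that direction.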
